A study of Mus musculus with 4 samples.

Results

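Prefrontal cortex of starch-fed mice heterozygous for Glo1 was compared with that of starch-fed wild-type mice, 1 array against 1 array, which are 2 of the 4 arrays of the series. The arrays were chosen by their labels, and 42094 of 56605 probes, those well above background on all 4 arrays, entered the comparison. All mice were of the strain labelled B6J, were 3 months old and had eaten their diet for about 70 days, beginning on postnatal day 21. The other 2 arrays hold wild-type and Glo1 heterozygous mice on sucrose, treated alike in every other respect that the labels give. Each array was hybridised with Cy3-labelled RNA from a pool of 3 RNA samples, so the spread between mice was not measured and no difference has a p-value. The kind of Glo1 allele, the sex and the litters of the mice are not given in the sources used here. All 4 arrays shared 1 slide, where each position held 1 group, so position and group cannot be told apart.

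Glyoxalase 1, the product of Glo1, is the first enzyme of the glyoxalase system. It turns the adduct of glutathione with methylglyoxal, a reactive by-product of sugar breakdown, into a thioester that glyoxalase 2 (Hagh) splits, which frees the glutathione. Methylglyoxal that escapes this route modifies proteins and DNA, and aldehyde dehydrogenases, aldo-keto reductases and deglycating enzymes work beside it. The starch-fed wild-type mice are the control group of the series, so this comparison asks which transcripts differ with the Glo1 genotype on the control diet.

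Every value below is 1 of 2 quantities. A level is a probe's signal as a multiple of the 75th percentile of its array. Across genes, levels serve only to order probes by brightness and to sum lists, and are not read as amounts of RNA. A change is the log2 level of the heterozygous array less that of the wild-type array on the same diet. A gene was read from its brightest probe, and a change of 2-fold (1 on the log2 scale) or more in size was counted as a call. The 75th percentiles were 1780 intensity units on the wild-type and 1882 on the heterozygous starch array, and 79.0% and 77.6% of the spots there were well above background. All 20 listed genes of cortical excitatory neurons and all 23 of interneurons passed the filter. So did most listed genes of the striatum (26 of 28), olfactory bulb (13 of 15), thalamus (13 of 14) and hypothalamus (12 of 12), so passing it does not tell the cortex from these regions.

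Glo1 was lower in heterozygous mice on all 3 of its probes. They lie on chromosome 17 (mm9, minus strand) and are shown because the genotype check rests on what they capture. The first is given whole and ends with the stop codon of the reading frame, in capitals. The other 2 begin at positions 1183 and 1735 of the transcript by the files' own positions, after the first at 603, and their first 30 bases are given.
A_55_P2502721 (chr17:30731083-30731142): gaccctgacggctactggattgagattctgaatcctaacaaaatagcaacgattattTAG
A_55_P2728133 (chr17:30730503-30730562): ctgagagcaattcggaatcatgctgacaag
A_51_P480982 (chr17:30729951-30730010): attctcagaggtgatttgaagactcaacaa

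The brightest Glo1 probe, A_51_P480982, had a level of 4.04 (wild-type) and 2.74 (heterozygous) on starch, and of 5.53 and 3.04 on sucrose. Its starch change was -0.56, which is 67.7% of the wild-type level. The probe over the stop codon read 1.47 and 0.973, a change of -0.60 or 66.1%, and the remaining probe read 0.968 and 0.659, a change of -0.56 or 68.1%. The 3 changes thus lay between -0.60 and -0.56, and on both diets each heterozygous level was below each wild-type level of the same probe. The Glo1 signal went with the labelled genotype, although the change was under the 2-fold size of a call. Where these probes lie relative to the altered stretch of the gene is not given in the sources used here. Probes for which 10 spots are printed give a repeated reading of the same pools: among the 291 in the brightest quartile of levels the spots' changes had a median SD of 0.032. That SD covers spot-to-spot error on the array and neither labelling nor mice, nor a shift that many probes have in common. Usual control genes, for example, were lower for 14 of 15, with a median of -0.10.

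The neighbours of Glo1 went both ways. Within 1 Mb of its probes on either side (chr17:29729951-31731142), 24 other genes passed, 12 with a positive and 12 with a negative change, and their median was 0.00095. Btbd9 changed by 0.02 and Zfand3 by -0.02. The 2 genes with the nearest probes, 0710001D07Rik and 1700097N02Rik, changed by -0.52 and -0.49, which is near the size of the Glo1 change, the next nearest, Gm6402, by 0.11 and Dnah8 beyond it by -0.26. On sucrose these 4 genes changed by -0.49, -0.09, 0.22 and -0.11. Only Gm8437, a dim predicted gene, lay just past 2-fold (lower) among these genes, and C130068B02Rik was the highest at 0.58.

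Among 20 listed enzymes of the glyoxalase route and of aldehyde detoxification, 14 were lower and 6 higher in heterozygous mice, with a median change of -0.07. Over all 20526 genes the median was -0.017 and 46.0% were higher. Of the enzymes 1 passed 2-fold, against 0.804% of all genes (165; 69 or 0.336% higher and 96 or 0.468% lower). That enzyme was Aldh1b1, a mitochondrial aldehyde dehydrogenase, with a level of 0.300 (wild-type) and 0.121 (heterozygous) on starch and of 0.177 and 0.159 on sucrose, a change of -1.30. The wild-type starch array was the high one of the 4 for this probe and the heterozygous starch array the low one.

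Hagh, the second enzyme of the system, had levels of 9.12 and 7.58 on starch, a change of -0.27, and of 8.36 and 6.88 on sucrose, a change of -0.28. Hagh was thus lower on both heterozygous arrays than on both wild-type arrays. Aldh2, which oxidises acetaldehyde and lipid aldehydes in mitochondria, changed by -0.51 from 4.70 to 3.31. On sucrose it read 3.45 and 3.56, so the wild-type starch array alone was high. Park7, a protein reported to act as a deglycase, changed by -0.19, Adh5, the glutathione-dependent formaldehyde dehydrogenase, by -0.21 and the aldo-keto reductases Akr1a1 and Akr1b3 by -0.12 and -0.04. Aldh9a1 at 0.15 was the highest of the list. On starch, no enzyme of the list was higher in heterozygous mice by as much as Glo1 was lower.

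Receptors of glycated proteins and deglycating kinases moved in both directions. Of 14 listed, 12 passed the filter, 6 were higher and 6 lower, the median was -0.0056, of positive sign under quantile (0.06) and loess (0.05) normalisation and among members at or above the median level, and none passed 2-fold. Ager, the receptor for advanced glycation end products, read 0.769 and 0.627 on starch, a change of -0.30, and 0.576 and 0.554 on sucrose. Fn3k, a kinase that removes sugar from lysines, changed by -0.03, and the scavenger receptor gene Stab2 by -0.54. Among 25 genes of glutathione metabolism and of the antioxidant factor Nrf2, all changes lay between -0.24 and 0.15. Of these 16 were lower, 9 higher and none past 2-fold, with a median of -0.03 that became 0.0018 under quantile normalisation. Sod2, the mitochondrial superoxide dismutase, was the highest at 0.15, the copper-zinc enzyme Sod1 stood at -0.13, and the metallothioneins Mt1 and Mt2 at -0.04 and -0.13.

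**Figure D1:**
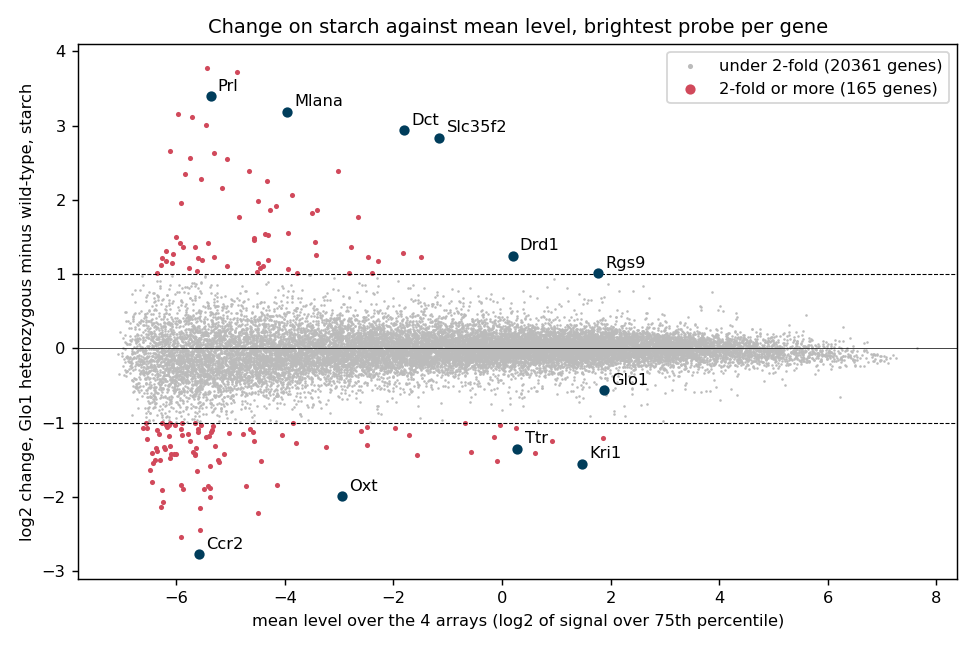
Each point is a gene, with its mean log2 level over the 4 arrays on the horizontal axis and its log2 change on starch on the vertical axis. The 165 genes at 2-fold or more are red, and dashed lines mark 2-fold. Most calls lie at the dim left side, where the cloud is widest, and Glo1 at -0.56 stands below the cloud at its own level.

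Over all probes 395 of 42094 (0.938%) were calls, 181 higher (0.43%) and 214 lower (0.508%) in heterozygous mice. The share of higher calls, 45.8%, became 52.2% under quantile, 51.2% under loess and 54.0% under normexp processing (another correction of the background, with an offset added), so which direction had more calls depends on the scaling. The calls were mostly of dim probes. By mean level, the dimmest quartile of probes held 282, the following ones 72 and 29, and the brightest 12. Among the 12978 genes at or above the median level of the probes, 20 (0.154%) were calls, 6 higher (0.0462%) and 14 lower (0.108%). Among the probes of that level 41 (0.195%) were calls, 13 higher (0.0618%) and 28 lower (0.133%). A spike-in of known identity at a mean level of 0.0338 had an SD of 0.379 over its 35 spots' changes, around a mean of 0.289. Another at 0.226 had an SD of 0.0758 around a mean of 0.0604. Of the 170 calls whose gene had another probe, the other probe moved 1.5-fold or more the same way for 25 (14.7%). At or above the median level this was 7 of 10 for higher and 5 of 18 for lower calls. These are counts of probes and not of genes, so called probes of 1 gene, such as those of Rgs9 or Drd1, back each other.

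The 10 largest increases were dim except for 2, and 7 of them rested on 1 probe. They were the long non-coding RNAs 4930447F24Rik (3.77), E330023G01Rik (3.72), Gm5087 (3.12) and Gm13483 (2.66), the uncharacterised Gm38631 (3.16), Prl (3.39), Mlana (3.19), Fasl (3.01), Dct (2.94) and Slc35f2 (2.84). Under normexp Gm13483 (0.83) was under 2-fold and the other 9 were not. In 7 of the 10 the heterozygous starch array stood at least 2-fold above the other 3. Dct, 1 of the 2 brighter genes, reached the median level through the heterozygous arrays, at 0.954 (starch) and 0.482 (sucrose). On the wild-type arrays it read 0.124 and 0.119. Prl, which encodes the pituitary hormone prolactin, had levels of 0.0101 and 0.106 on starch and of 0.0305 and 0.0105 on sucrose, so 1 array was high and the sucrose change was -1.53. Fasl, the death ligand of cytotoxic lymphocytes, read 0.0153 and 0.123 on starch and 0.0111 and 0.0129 on sucrose. Gm5087 had a second probe at -0.62, against its change. Slc35f2, a membrane transporter, read 0.0916 and 0.654 on starch and 0.813 and 0.832 on sucrose. Here the wild-type starch array was low, and the heterozygous one was near the sucrose arrays.

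The 10 largest decreases were all below the median level, and 6 of them were under 2-fold with normexp: Drd3 (-0.98), Tmem27 (-0.82), Gm26708 (-0.74), Lce3c (-0.60), Pih1h3b (-0.98) and Spink1 (-0.63). In 9 of them the wild-type starch array stood at least 2-fold above the other 3. Ccr2, the chemokine receptor of inflammatory monocytes, had levels of 0.0845 (wild-type) and 0.0124 (heterozygous) on starch and of 0.0125 and 0.0142 on sucrose, a change of -2.77. Drd3, the dopamine D3 receptor, read 0.0587 and 0.0101 on starch and 0.0119 and 0.0105 on sucrose, a change of -2.54. Both genes were high on the wild-type starch array and alike on the other 3. Tmem27, an amino acid transport partner (-2.45), 6820426E19Rik (-2.21), Gm20752 (-2.15), Gm26708 (-2.13), the skin barrier gene Lce3c (-2.07), Pih1h3b (-2.01) and Spink1 (-1.91) complete the set with Oxt. Oxt, the gene of oxytocin, had levels of 0.319 and 0.0804 on starch and of 0.0696 and 0.155 on sucrose, a change of -1.99. Its other probe changed by -0.36.

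Among genes at or above the median level, the 10 largest decreases lay between -1.55 and -1.17 and included those of Kri1, Rprml, Slc6a11, Rnd1, Ykt6, Ttr, B4galt2, Suv420h2 and Samd8. Ttr reached that level through the sucrose arrays, where it read 1.42 (wild-type) and 58.7 (heterozygous). On the starch arrays it read 0.259 and 0.101. Kri1, a factor of ribosome assembly, had levels of 6.12 and 2.09 on starch and of 2.22 and 2.08 on sucrose, and a dim further probe changed by -0.12. Another probe that carries its name also changed by -0.12, but lies at chr9:123840487-123840546, far from the brightest at chr9:21077924-21077983, so by its coordinates it does not read Kri1. Rprml, a relative of the cell cycle gene Reprimo, read 1.91 and 0.664 on starch and 0.794 and 0.768 on sucrose. Slc6a11, the GABA transporter GAT-3 of astrocytes, changed by -1.44, from 0.691 to 0.255, with 0.273 and 0.263 on sucrose. In each of these 3 genes the wild-type starch array was high and the other 3 were close together. That array stood at least 2-fold above the others in 7 of the 10 genes.

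Rnd1, a small GTPase, was the only one of the 10 apart from Ttr with a second probe past 2-fold. Its probes changed by -1.40, -1.57 and -0.22, and the brightest read 3.08 and 1.16 on starch and 1.37 and 1.07 on sucrose. Further probes of Ykt6 (0.18), Suv420h2 (-0.22) and Samd8 (0.06) did not share the size of the brightest probes' changes of -1.39, -1.19 and -1.17, and with the mean over probes these 3 genes and Kri1 were under 2-fold.

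The bright increases beside Dct and Slc35f2 were Nts (1.28), Drd1 (1.25), Clic6 (1.23) and Rgs9 (1.01), followed under 2-fold by Lincpint (0.93), Syndig1l (0.91), 5330406M23Rik (0.87) and Gm15520 (0.86). Nts encodes neurotensin, a peptide that acts on dopamine neurons, and had levels of 0.210 and 0.511 on starch and of 0.367 and 0.161 on sucrose. Clic6 reached the median level through the heterozygous sucrose array, where it read 2.65; on the starch arrays it read 0.0978 and 0.229, and its change was 0.91 under normexp. Lincpint, a long non-coding RNA, read 1.26 and 2.41 on starch and 2.22 and 2.13 on sucrose, so the wild-type starch array was the low one. Genes with at least 2 probes past 2-fold the same way were Bag6, Drd1, Mlana and Rgs9 (higher) and Rnd1 and Ttr (lower). In Bag6, a chaperone of membrane proteins, 2 probes far dimmer than the brightest changed by 1.86 and 1.57 while the brightest stood at -0.07. The probe at 1.86 read 0.133 and 0.481 on starch and 0.365 and 0.458 on sucrose, so the wild-type starch array was the low one.

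**Figure D2:**
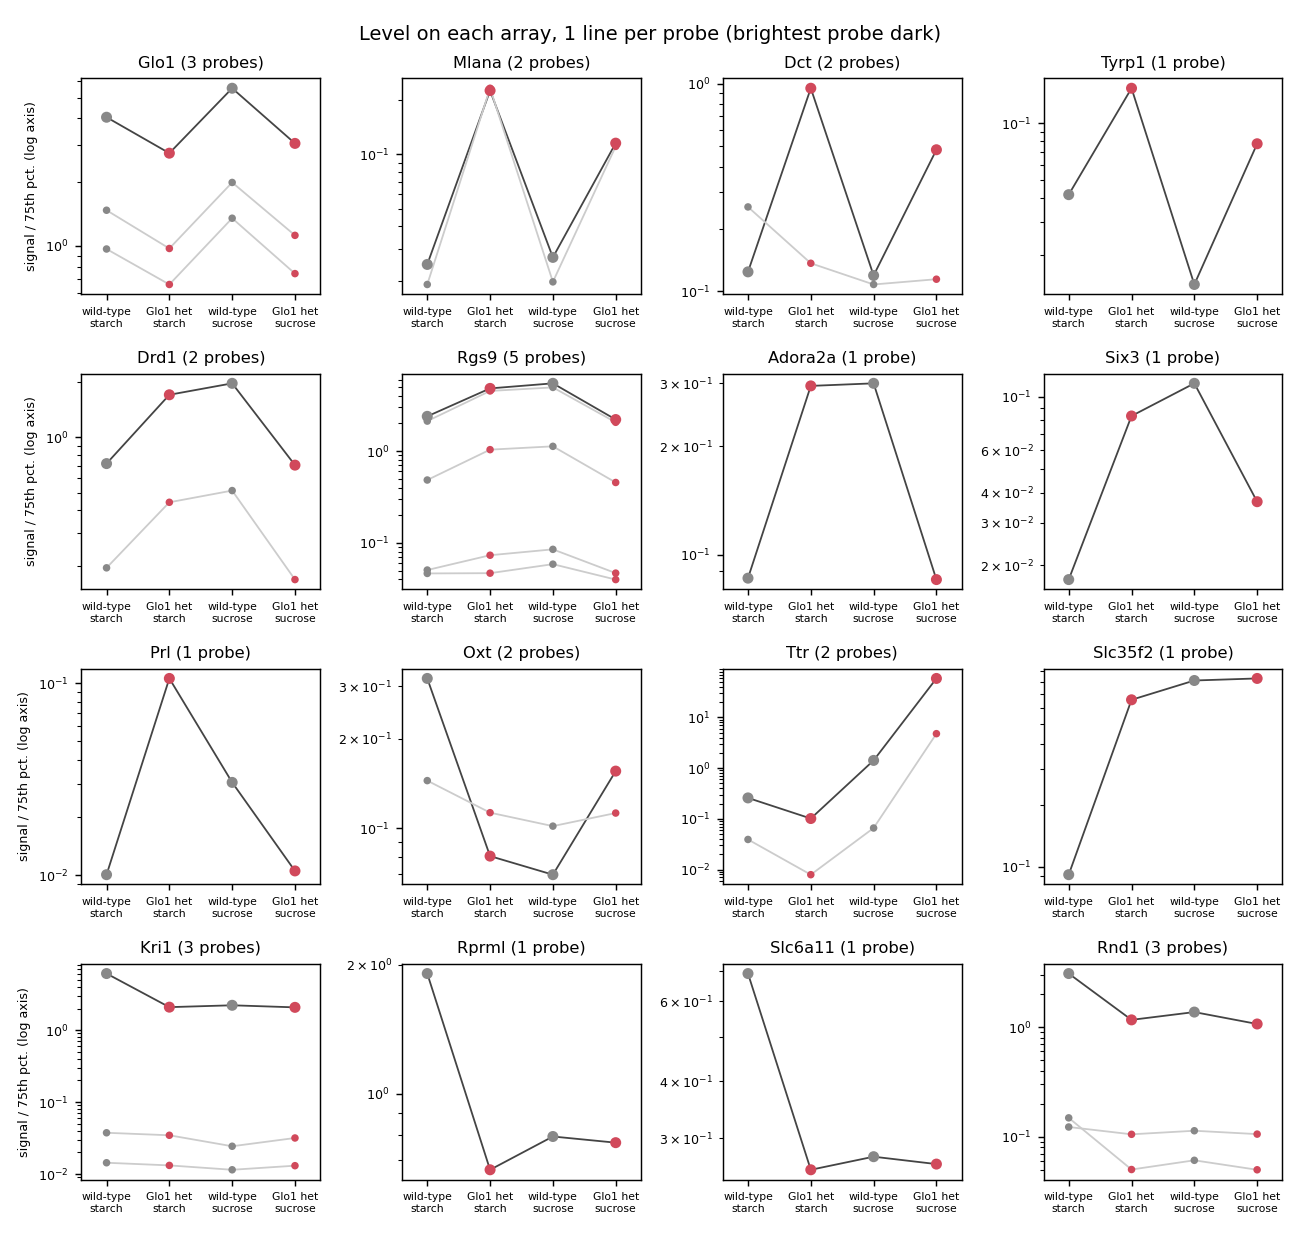
Levels of 16 genes on the 4 arrays, 1 line per probe, as multiples of the array's 75th percentile on a log axis whose range differs between panels; wild-type arrays are grey and heterozygous arrays red, and the lines only join the points of 1 probe. Glo1 is lower on both heterozygous arrays, Mlana and Tyrp1 are higher on both, Drd1 and Rgs9 are high on the heterozygous starch and wild-type sucrose arrays, and Kri1, Rprml and Slc6a11 are high on the wild-type starch array only.

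Several genes of melanin synthesis were higher in heterozygous mice, and Tyr, which starts it, was lower. Melanocytes make melanin in membrane-bound melanosomes. Tyrosinase (Tyr) starts the synthesis, Dct and Tyrp1 carry out later steps, Pmel forms the fibrils on which pigment is laid down, and Mlana encodes a melanosomal protein. Of 18 listed genes 16 passed the filter, 12 were higher and 4 lower, with a median of 0.19, and 4 (Mlana, Dct, Tyrp1, Pmel) were past 2-fold higher, against 0.336% of all genes. Pmel was under 2-fold with normexp (0.52). On sucrose 14 of the 16 were higher and the median was 0.43. In bulk tissue, fewer cells of a type and less RNA per cell cannot be told apart.

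Mlana had levels of 0.0246 (wild-type) and 0.225 (heterozygous) on starch, a change of 3.19, and of 0.0269 and 0.115 on sucrose, a change of 2.10. Its second probe changed by 3.60 and 2.49. Both heterozygous arrays were above both wild-type arrays on each probe. Tyrp1 read 0.0418 and 0.153 on starch (1.87) and 0.0140 and 0.0777 on sucrose (2.47), in the same order. Pmel read 0.0343 and 0.0725 (1.08), then 0.0326 and 0.0521 (0.68). These 3 genes were higher on both heterozygous arrays than on both wild-type arrays.

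Dct split by probe. The brighter probe had levels of 0.124 and 0.954 on starch (2.94) and of 0.119 and 0.482 on sucrose (2.01). The other read 0.255 and 0.137 on starch, a change of -0.90, and 0.108 and 0.115 on sucrose. The 2 probes thus disagreed on the same arrays.

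Tyr went the other way from the leading genes, with levels of 0.0951 and 0.0484 on starch, a change of -0.97, and of 0.0473 and 0.0434 on sucrose, so the wild-type starch array was the high one. Slc45a2, a melanosomal transporter, was well above background on the heterozygous starch array only, at least 2.62-fold higher there than on the wild-type starch array. The bound is taken against the lowest signal well above background on that array. Mc1r, the melanocortin receptor, was well above background on the other 3 arrays and not on the heterozygous starch array, where it was at least 1.11-fold lower than on the wild-type one. Listed genes that other brain cells also use moved little, Mitf by 0.15, Sox10 by 0.10 and Kit by 0.16. The summed level of the list was 10.4 (wild-type) and 12.6 (heterozygous) on starch and 9.58 and 11.8 on sucrose. Trpm1 (4.31 on the wild-type starch array), Sox10, Mitf and Kit gave most of it, so the sum is no measure of Mlana, Tyrp1 or Pmel. Meningeal fibroblast and collagen genes, of which 14 of 19 were higher, had a median of 0.17 on starch and 0.01 on sucrose. The part of melanocytes or meninges in these changes was not tested.

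The promoters of the listed genes were searched for TCATGTG, or CACATGA on the other strand, the M-box bound by the melanocyte factor MITF. The 250 bases before the start were read from RefSeq's promoters (GRCm38.p6). The motif stood in 1068 of 32851 promoters (3.25%). Of the 18 genes 12 had an entry, with 17 promoters, and 6 of these, 1 for each of 6 genes, held it (Dct, Mc1r, Slc24a5, Trpm1, Tyr, Tyrp1). Windows of 3 are shown with the motif in capitals, since Dct and Tyrp1 were higher and Tyr was lower.
Dct (chr14:118052366-118052496, minus strand): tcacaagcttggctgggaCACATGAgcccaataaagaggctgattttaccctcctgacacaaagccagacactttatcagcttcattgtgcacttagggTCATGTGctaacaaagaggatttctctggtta
Tyrp1 (chr4:80834141-80834197, plus strand): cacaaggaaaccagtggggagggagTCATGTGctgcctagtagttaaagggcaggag
Tyr (chr7:87493513-87493559, minus strand): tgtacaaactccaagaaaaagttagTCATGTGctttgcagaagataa

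The motif began 232 and 151 bases before the start in Dct, 47 in Tyrp1 and 22 in Tyr. A match describes the sequence and not binding, and promoters with it belonged to genes on both sides of 0.

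Genes of striatal projection neurons were higher in heterozygous mice on starch. These neurons of the basal ganglia receive dopamine through Drd1 or Drd2 and release the peptides made from Tac1, Pdyn and Penk. Of 28 listed genes 26 passed the filter, 24 were higher and 2 lower, the median was 0.45, and 6 were past 2-fold higher and 1 lower, against 0.336% and 0.468% of all genes. On sucrose 2 of the 26 were higher and the median was -0.81. The summed level was 70.9 (wild-type) and 96.0 (heterozygous) on starch, and 104 and 67.3 on sucrose.

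Drd1, the dopamine D1 receptor, had levels of 0.720 and 1.71 on starch and of 1.97 and 0.706 on sucrose, a starch change of 1.25, and its second probe changed by 1.19. Rgs9, a regulator that shortens G protein signals, read 2.38 and 4.80 on starch and 5.45 and 2.20 on sucrose, a change of 1.01. Of its further probes 2 were past 2-fold and the 2 dim ones stood at 0.54 and 0.01. Those past 2-fold lie at chr11:109086675-109086734, which overlaps the brightest (chr11:109086669-109086728), and at chr11:109086809-109086868, close to it. The overlapping probes are not separate readings. Adora2a, the adenosine A2A receptor of the indirect pathway, read 0.0861 and 0.295 on starch and 0.299 and 0.0853 on sucrose, a change of 1.78. All 3 genes were high on the heterozygous starch and wild-type sucrose arrays and low on the other 2.

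Six3, a transcription factor gene, changed by 2.25, the receptor gene Gpr6 by 1.17 and the tryptophan-degrading enzyme gene Ido1 by 1.02. The neuropeptide genes were bright and changed less: Tac1 by 0.84, from 4.71 to 8.45, Penk by 0.48, from 17.6 to 24.7, and Pdyn by 0.43. Ppp1r1b, the dopamine-regulated phosphatase inhibitor DARPP-32, changed by 0.39 and the signalling genes Gng7 and Pde1b by 0.31 and 0.14. Drd2 (-0.22) and Drd3 (-2.54) were the 2 lower members. Of the 6 higher calls, Six3 (0.94), Gpr6 (0.91) and Ido1 (0.60) were under 2-fold with normexp, Rgs9 (0.99) and Ido1 just under it with median scaling, and Rgs9 (0.75) and Gpr6 (0.83) with the mean over probes. Drd1 and Adora2a kept 2-fold in the settings run. The lower call, Drd3, was under 2-fold with normexp (-0.98). Isl1 was well above background on the heterozygous starch array and not on the wild-type one, at least 6.67-fold higher.

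Of the cholinergic neuron list, 9 of 11 passed, 5 were higher, and the median was 0.25 on starch and -0.23 on sucrose. Slc10a4, a vesicle protein of cholinergic cells, read 0.0424 and 0.154 on starch and 0.202 and 0.0584 on sucrose, a change of 1.86, and was 1 of 9 past 2-fold higher, against 0.336% of all genes. The choline transporter Slc5a7 changed by 0.62, Chat, which makes acetylcholine, by 0.35, Ecel1 by 0.35, Ngfr by -0.15 and Gbx1 by -0.40. Slc10a4 and Slc5a7 were, like Drd1, higher on the heterozygous starch and wild-type sucrose arrays than on the other 2, and Chat was not. The share of striatal tissue in each pool was not tested.

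**Figure D3:**
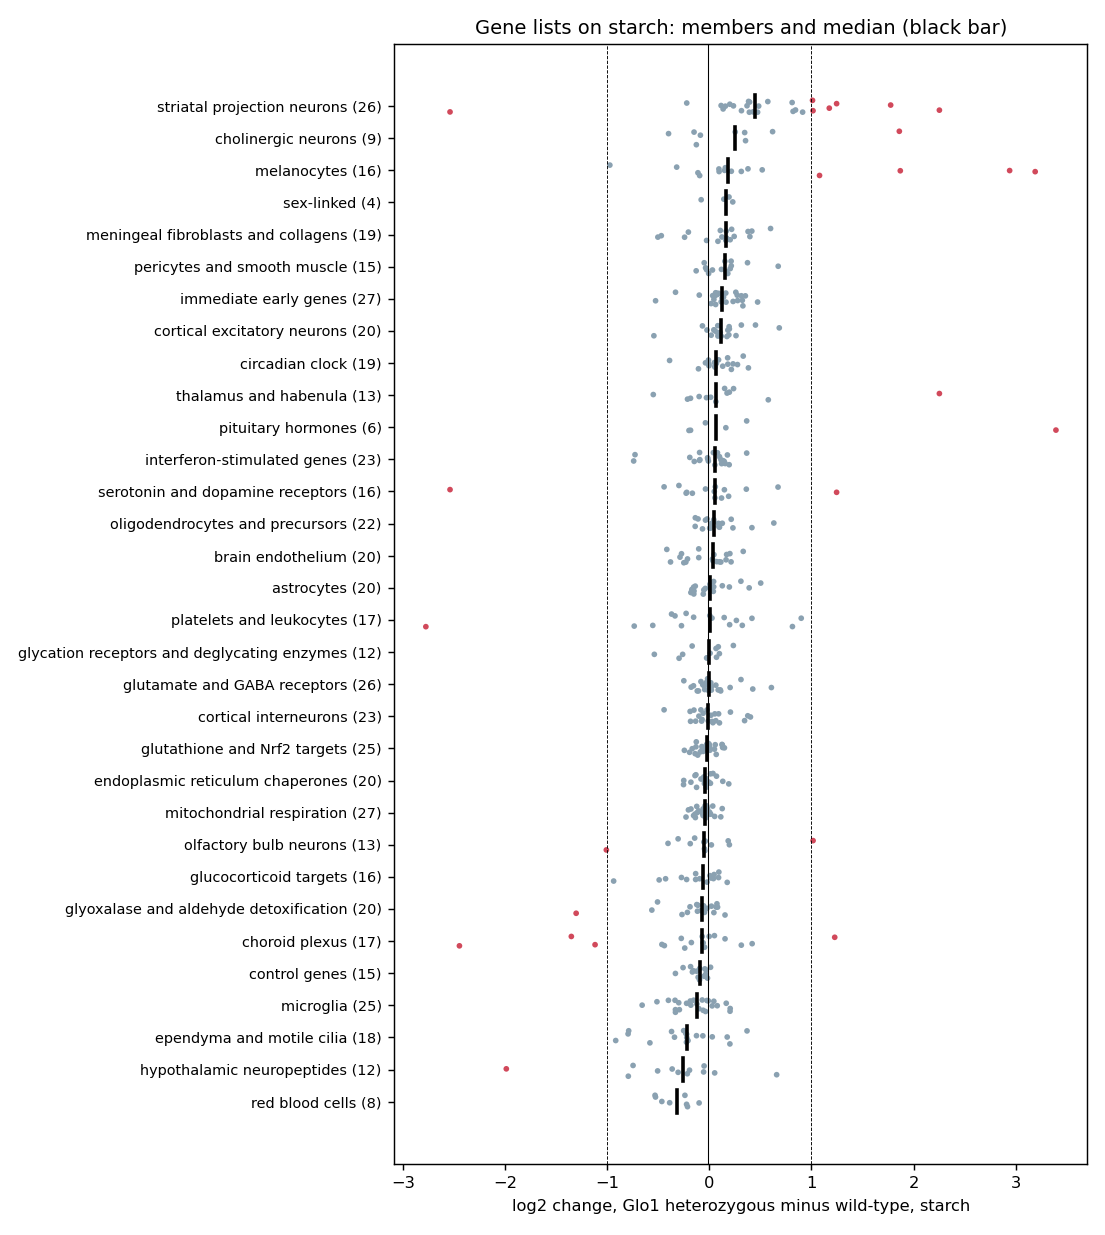
Members of the 32 gene lists as points along their log2 change on starch, with the number that passed the filter in brackets and the list's median as a black bar; red points are past 2-fold, and vertical scatter within a list has no meaning. The striatal list has the highest median at 0.45 and red blood cell genes the lowest at -0.31, and most lists centre near 0.

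Genes of red blood cells were lower in heterozygous mice, 8 of the 8 that passed of 13 listed, with a median of -0.31 and none past 2-fold. Hbb-b2, a beta globin, changed by -0.53 from 9.64 to 6.67, Hbb-b1 by -0.46, the alpha globins Hba-a1 and Hba-a2 by -0.24 and -0.22, Hbb-bt by -0.21 and the red cell anion exchanger Slc4a1 by -0.53. Near-identical globin copies can share signal, so these are not separate readings. The summed level was 281 and 238 on starch and 138 and 155 on sucrose. Both starch arrays were above both sucrose arrays.

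Hypothalamic peptide genes were mostly lower, 10 of 12, with a median of -0.26 where 46.0% of all genes were higher, and 1 (Oxt) was past 2-fold lower, against 0.468% of all genes. Avp, the gene of vasopressin, changed by -0.79, Trh, that of thyrotropin-releasing hormone, by -0.75 from 1.98 to 1.18, Gal, that of galanin, by -0.19 and Cartpt by 0.66. On sucrose 8 of the 12 were higher, with a median of 0.22. Of the pituitary list 6 of 11 passed, 3 higher and 3 lower, with a median of 0.06 (negative under normexp and at or above the median level) and 1 (Prl) past 2-fold higher, against 0.336% of all genes. Cga, the shared hormone subunit, was above background on the heterozygous starch array only, at least 2.69-fold higher.

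Genes of ependyma, the ciliated lining of the ventricles, were lower for 14 of 18, with a median of -0.22. Ccdc153 changed by -0.92, the cilia regulator Foxj1 by -0.79, Rsph4a by -0.79, Fam183b by -0.23, Rarres2 by -0.22 and Spag6 by 0.20. On sucrose all 18 were higher, with a median of 1.37. Choroid plexus genes, of the tissue that secretes cerebrospinal fluid, had a median of -0.07 with 5 of 17 higher. Of these Clic6, an intracellular chloride channel, was past 2-fold higher at 1.23, and Tmem27 (-2.45), Ttr (-1.35) and the folate receptor Folr1 (-1.12) were past 2-fold lower, against 0.336% higher and 0.468% lower among all genes. Folr1's other probe changed by 0.17, and the mean of both was -0.47. Under normexp Clic6 (0.91), Tmem27 (-0.82) and Folr1 were under 2-fold. Ttr, which carries thyroid hormone, had levels of 0.259 and 0.101 on starch and of 1.42 and 58.7 on sucrose. The summed choroid plexus level was 17.4, 16.8, 18.7 and 107 on the wild-type starch, heterozygous starch, wild-type sucrose and heterozygous sucrose arrays. Enpp2, an enzyme also made by other brain cells, gave most of the sum on the starch arrays (15.7 and 15.0), so it says little of the other members there.

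Microglial genes were lower for 19 of 25, with a median of -0.12 and none past 2-fold. The complement genes C1qa (-0.66) and C1qb (-0.51) and the microglial marker Tmem119 (-0.40) led, while C1qc (-0.06) and Cx3cr1 (0.03) were near 0. C1qa read 1.82 and 1.15 on starch and 1.06 and 1.06 on sucrose, so the wild-type starch array alone was high. Of the platelet and leukocyte list 17 of 20 passed, 9 higher and 8 lower, with a median of 0.0047 that was negative under median scaling, quantile normalisation, normexp and the mean over probes. Ccr2 was the only call, 1 of 17 lower against 0.468% of all genes, and Ppbp (0.90) and S100a9 (0.81) were the highest.

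Immediate early genes, which neurons switch on after activity, were higher for 24 of 27, with a median of 0.12 and none past 2-fold. The phosphatase gene Dusp1 was the highest at 0.47, followed among the named members by the synaptic gene Arc at 0.35, Egr2 at 0.32 and Fos at 0.27, and Fosl1 was the lowest at -0.53. On sucrose 7 of the 27 were higher and 20 lower, with a median of -0.12. Cortical excitatory neuron genes were higher for 17 of 20 on starch, with a median of 0.11, and for 6 of 20 on sucrose, with a median of -0.20. Interneuron genes were higher for 11 of 23, with a median of -0.01 that was positive in 6 of 11 settings, quantile, loess and normexp among them. Camk2a, the calcium-dependent kinase of excitatory synapses, read 37.0 and 50.6 on starch and 53.7 and 54.0 on sucrose, a change of 0.45. The wild-type starch array was the low one. Olfactory bulb genes, 4 of 13 higher, had a median of -0.05, with 1 of 13 past 2-fold higher (Tbx21 at 1.02) and 1 lower (Omp at -1.01), against 0.336% and 0.468% of all genes. Both were under 2-fold with normexp, Tbx21 at 0.90. On sucrose 12 of the 13 were higher, with a median of 1.30.

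The sucrose arrays give the same genotype contrast in another pair of pools, with no array in common. Of the 69 genes past 2-fold higher on starch, 8 were so on sucrose, which is 11.6% of 69 and 2.83% of the 283 on sucrose. On sucrose 1.72% of all genes were calls, 1.38% higher. These genes were Mlana, Dct, Tyrp1, Clic6, the glutathione transferase gene Gsta2, Tbx21, Xlr4a and 1700024G13Rik. Of the 96 lower genes 1 (Olfr166) was also lower on sucrose, which is 1.04% of 96 and 1.41% of 71, where 0.346% of all genes were past 2-fold lower. Another 12 higher genes and 6 lower ones were past 2-fold in the opposite direction. In sign alone, 39 of 69 and 55 of 96 kept their direction. The median sucrose change of all genes was -0.019, and the share of all genes with each sign there is not given, so these counts have no background beside them.

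**Figure D4:**
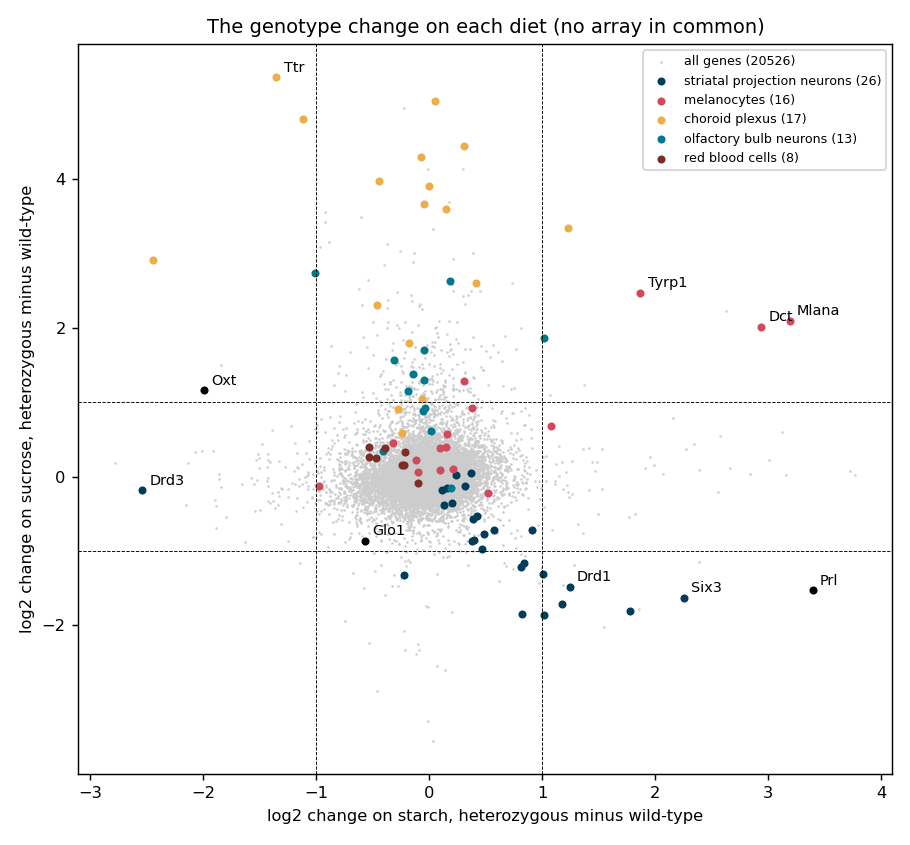
Log2 change of heterozygous against wild-type mice on starch (horizontal) and on sucrose (vertical), 1 point per gene, with 5 gene lists coloured and dashed lines at 2-fold. Mlana, Dct and Tyrp1 lie in the upper right, most striatal genes in the lower right, and choroid plexus genes high on the sucrose axis with little spread along the starch axis, Ttr, Folr1, Tmem27 and Clic6 excepted.

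In 191 of the 395 calls neither starch array lay outside the other 3 by 2-fold. Of the 214 lower probes, the wild-type starch array lay at least 2-fold above the other 3 in 96 and the heterozygous starch array at least 2-fold below them in 4. Of the 181 higher probes, the heterozygous array lay above in 88 and the wild-type array below in 16. At or above the median level, the wild-type array stood apart in 17 of 28 lower and 5 of 13 higher calls, and the heterozygous array in 1 and 0.

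The change also moved with the GC content of the probe. Its median was 0.07 among probes of 15 to 35% GC and -0.14 among those of 50% or more, where it was 0.02 and -0.06 on sucrose. Lower calls made up 0.427%, 0.345%, 0.514%, 0.147% and 0.826% of the probes in the 5 bins from low to high GC, with no steady rise. The 28 lower calls at or above the median level had a median GC content of 52.5%, against 41.7% for all probes of that level. The part of GC content in these calls was tested only by subtracting the median change of probes with equal GC content, after which the 214 lower calls became 197. Kri1, Rprml, Slc6a11 and Rnd1 were still past 2-fold, and Omp (-0.88) was not.

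**Figure D5:**
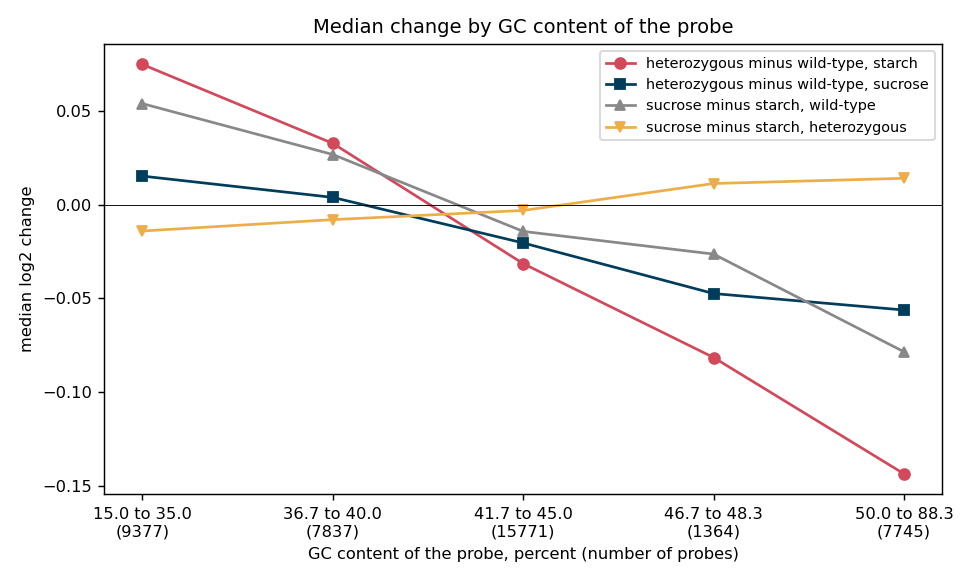
Median log2 change in 5 bins of probe GC content, with the number of probes in brackets, for 4 pairs of arrays. The starch genotype change falls from 0.07 to -0.14 across the bins and the sucrose one from 0.02 to -0.06; the diet change in wild-type mice also falls, and that in heterozygous mice stays within 0.02 of 0.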

How the data were processed

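Each of the 4 arrays was a one-colour Agilent array of pooled prefrontal cortex RNA (3 samples, 200 ng labelled). The authors deposited intensity values of Agilent Feature Extraction 11.5.1.1, per the submitters' processing notes; per the file headers these were background-subtracted and detrended within each array, with no step between arrays. The deposited value table held a linear ratio, which was found to be the same intensity divided by a constant of the array, and was used as an alternative.

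From these, log2 of the processed signal over the 75th percentile of non-control spots was computed, without spots marked as outliers, and repeated spots were averaged. Of 56605 probes, 42094 were well above background on all 4 arrays, and their brightest per name gave 20526 genes. The files' names were kept: 18298 were RefSeq symbols, 855 older ones and 1373 neither. Coordinates are those of the files (mm9), and promoters are RefSeq's. With 1 array a group there is no test, interval or p-value, and the number of arrays limits the precision. The 2-fold call rule was tried on simulated differences with planted changes. The scaling, spot averaging and gene steps were not tested in that way. Python 3.11.15 and R 4.3.3 with limma 3.58.1 (quantile, loess and normexp alternatives) were used.

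Genes were named by a rule: Glo1, the 10 highest and 10 lowest genes, the same among genes at or above the median level, genes with at least 2 probes past 2-fold one way, list members past 2-fold, and, in lists whose median was 0.2 or more in size, the 3 largest changes and the 3 brightest members. Other list members and neighbours of Glo1 given with a value were chosen after their values were seen. Comparison, alternatives and 32 gene lists were chosen with earlier results of these data known. The GC-content alternative was added after seeing the data. Results for some items that the rule names are not reported here.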

Additional observations from a re-analysis of the deposited data

Results flagged for a closer look

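In 12 genes that were past 2-fold higher on starch and 6 that were past 2-fold lower, the sucrose arrays gave a change past 2-fold in the opposite direction, 1 pair of arrays each, and the difference between diets was not tested. Values are given for the 14 of these that the naming rule takes; Gm33651, Gm5868, Sh3rf2 (higher on starch) and Fzd8 (lower) are the others. Among striatal genes the pairs of changes, starch first, were 1.78 and -1.81 for Adora2a, 1.17 and -1.71 for Gpr6, 2.25 and -1.63 for Six3, 1.25 and -1.48 for Drd1, 1.01 and -1.31 for Rgs9 and 1.02 and -1.86 for Ido1. Slc10a4 of cholinergic neurons gave 1.86 and -1.79, the peptide gene Nts 1.28 and -1.19, and the hormone gene Prl 3.39 and -1.53.

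Of the genes lower on starch and higher on sucrose, those of the choroid plexus gave -1.35 and 5.37 (Ttr), -1.12 and 4.80 (Folr1) and -2.45 and 2.91 (Tmem27). Omp, the olfactory marker protein, gave -1.01 and 2.74, and Oxt -1.99 and 1.16. For Ttr and Folr1 the heterozygous sucrose array was the high one of the 4, and for Omp the wild-type sucrose array was the low one. Tmem27 was high on the heterozygous sucrose (0.0665) and wild-type starch (0.0434) arrays, against 0.00797 (heterozygous starch) and 0.00882 (wild-type sucrose).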

How the results depend on the processing

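Glo1 stayed between -0.58 and -0.54 under the alternatives run, GC adjustment (-0.55) included. The 395 calls became 100 with normexp, 3052 without the filter on dim probes and 41 at or above the median level, and stayed between 381 and 434 otherwise. The share of higher calls, 45.8%, was 52.24% under quantile, 51.24% under loess and 54% under normexp processing, 36.11% without the filter and 31.71% at or above the median level. Of 75 named genes 45 were calls, none of which changed sign. In all settings 25 kept 2-fold, and 20 lost it in at least 1: 15 under normexp (Six3 0.94, Drd3 -0.98, Tmem27 -0.82, Pmel 0.52, Tbx21 0.90 among them), 7 with the mean over probes (Kri1 -0.60, with a probe far from the gene in the mean, and Rgs9 0.75) and Omp (-0.88) with GC adjustment. Medians of the striatal (0.39 to 0.47), melanocyte (0.09 to 0.33), red blood cell (-0.39 to -0.24), cholinergic (0.05 to 0.35), microglial (-0.18 to -0.07), immediate early (0.11 to 0.18) and detoxification (-0.11 to -0.03) lists kept their sign in the settings run, and those of the interneuron list did not in 6 of 11. No paired analysis was possible because each group had 1 array of pooled RNA. Spike-in spots varied more at low signal over background, so dim calls are the least precise.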

Other observations

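Pericyte and smooth muscle genes were higher for 10 of 15, with a median of 0.15 and the smooth muscle gene Cnn1 highest at 0.67. Col1a1 at 0.60 led the meningeal collagens. Endothelial genes had a median of 0.03 with 11 of 20 higher, and the tight junction gene Cldn5 stood at -0.29. Oligodendrocyte genes were higher for 16 of 22, with a median of 0.04, and the myelin regulator Myrf stood at 0.63. Astrocyte genes had a median of 0.0070 that turned negative with median scaling, GC adjustment and the mean over probes, and the gap junction gene Gjb2 stood at 0.50. None of these genes passed 2-fold.

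Clock genes had a median of 0.07 (13 of 19 higher), glucocorticoid targets -0.06 (7 of 16 higher, Plin4 lowest at -0.94) and chaperones of the endoplasmic reticulum -0.04 (0.01 under loess). Respiratory chain genes were lower for 21 of 27, with a median of -0.04 that was positive under quantile (0.05) and loess (0.03) normalisation. Interferon-stimulated genes had a median of 0.05 (13 of 23 higher; negative at or above the median level), with Bst2 at -0.74 and Isg15 at -0.73. Isg15 read 1.23 and 0.743 on starch and 0.474 and 0.460 on sucrose, so both starch arrays were above both sucrose arrays. Glutamate and GABA receptor genes had a median of -0.0057 (positive under quantile, loess and normexp processing and with the mean over probes), with the NMDA receptor subunit gene Grin2a highest at 0.61. Serotonin and dopamine receptor genes had 0.05 (-0.0062 under normexp), and thalamic genes 0.06 (-0.0088 with GC adjustment), where Six3, shared with the striatal list, was the only call, 1 of 13 higher against 0.336% of all genes. Usual control genes were lower for 14 of 15, with a median of -0.10. The 4 Y-linked genes listed were above background on all 4 arrays, with a median of 0.17. Xist, the RNA of the inactive X chromosome, was well above background on the wild-type starch array only, at a level of 0.0187, at least 2.79-fold above the heterozygous starch array.

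Some probes were well above background on 1 of the 2 starch arrays only. There were 755 on the heterozygous side, 176 of them at least 2-fold higher there, and 1598 on the wild-type side, 268 at least 2-fold. The largest bounds were those of Sycp1-ps1, at least 36.5-fold, and the defensin gene Defa2, at least 33.8-fold higher in heterozygous mice. Gm30225 was at least 22.2-fold and Cox8c, a testis form of a cytochrome oxidase subunit, at least 20.9-fold lower. All 4 were not well above background on either sucrose array, so each was seen on 1 array.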
